A study of Mus musculus with 44 samples.

Results

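The genes Egr1, Egr4, Nr4a1, Arc, Dusp1 and Btg2 are activity-regulated genes other than the Fos and Jun families, and they were followed here in ribosome-associated RNA of Crh-expressing cells of the mouse amygdala. They were chosen by symbol, with earlier results of these data known, and all 6 were among the 8203 genes of the deposited table. The 44 mice were adults of 10 to 16 weeks and both sexes, in 3 groups. All were Crh-TRAP mice, in which a Crh-Cre line turned on a fusion of eGFP with the ribosomal protein L10a in Cre-expressing cells, so that GFP-tagged ribosomes and their RNA could be purified from 1 mm punches centred over the amygdala (translating ribosome affinity purification, TRAP). TA mice (n = 16) heard 5 tones without shock. FC mice (n = 12) had 5 tones that ended with a foot shock of 0.65 mA. EXT mice (n = 16) were fear conditioned in the same way and on the following day heard 30 tones without shock in another context. Mice were sacrificed 2 h after their last session. The EXT mice therefore differed from the TA mice in shocks, in the number of tones, in the context and in the day, and these cannot be told apart.

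The Cre line, not Crh itself, set which cells carried the tag, and in a pulldown from tissue fewer cells of a type and less RNA per cell cannot be told apart. Of 12 genes listed for GABAergic and central amygdala neurons, 11 were in the table, with a summed level of 1938 to 8284 cpm (reads scaled to a common library size) over mice, but 7 of 8 oligodendrocyte genes (1416 to 18412 cpm), 8 of 8 astrocyte genes (674 to 3352 cpm) and 4 of 8 choroid plexus genes (186 to 51048 cpm) were measured too. None of 8 microglial genes was in the table, and 4 of 9 glutamatergic and 1 of 6 endothelial genes were.

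Immediate early genes are transcribed within minutes of strong synaptic input, without new protein synthesis. Calcium entry and the kinases downstream of it act on factors already bound at these genes, above all CREB, which binds the cAMP response element, and SRF, which binds the CArG box. The RNAs are short-lived, so that their level a while after a session depends on how recently and how strongly the cells were driven. Egr1 and Egr4 encode zinc finger transcription factors, and Nr4a1 encodes an orphan nuclear receptor. Arc encodes a synaptic protein that promotes removal of AMPA receptors from the membrane. Dusp1 encodes a phosphatase that inactivates MAP kinases and is also a target of glucocorticoids, and Btg2 encodes an anti-proliferative protein that binds the CCR4-NOT deadenylase.

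The 6 genes lie on 5 chromosomes of build GRCm38 (GENCODE M21). Egr4 is at chr6:85511121-85513589 on the minus strand and Nr4a1 at chr15:101254269-101274795 on the plus strand. Arc is at chr15:74669083-74672570, Dusp1 at chr17:26505590-26562128 and Btg2 at chr1:134075170-134079120, all on the minus strand. Exons of 5 of them overlapped no other annotated gene. An exon of Dusp1 overlapped an exon of Ergic1, which lies on the opposite strand and is in the table, by 11 bases, and reads in those bases cannot be told apart where strand was not used. Its principal transcript covers only chr17:26505590-26508519.

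Promoter sequences of RefSeq (GRCm38.p6) were looked up for the genes other than Egr1, and Arc had no entry. Those of 4 of the 6 genes are shown because CREB is the factor best known to act at genes of this kind. Each is the 250 bases before the RefSeq start, 5′ to 3′ on the gene's strand, for Egr4 at chr6:85513590-85513839, Nr4a1 at chr15:101266596-101266845, Dusp1 at chr17:26508473-26508722 and Btg2 at chr1:134079156-134079405. Capitals mark the cAMP response element TGACGTCA and its half-site CGTCA, searched on both strands (TGACG on the other); a full element holds overlapping half-sites on both strands.
Egr4: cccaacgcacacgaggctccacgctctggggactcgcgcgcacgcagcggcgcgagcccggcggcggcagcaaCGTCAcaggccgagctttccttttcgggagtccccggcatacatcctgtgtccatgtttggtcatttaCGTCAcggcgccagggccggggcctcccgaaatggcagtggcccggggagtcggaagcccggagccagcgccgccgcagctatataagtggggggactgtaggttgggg
Nr4a1: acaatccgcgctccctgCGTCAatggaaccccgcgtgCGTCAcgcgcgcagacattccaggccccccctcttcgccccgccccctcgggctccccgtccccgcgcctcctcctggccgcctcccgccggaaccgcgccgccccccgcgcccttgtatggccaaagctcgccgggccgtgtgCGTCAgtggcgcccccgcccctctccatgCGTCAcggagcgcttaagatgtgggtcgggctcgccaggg
Dusp1: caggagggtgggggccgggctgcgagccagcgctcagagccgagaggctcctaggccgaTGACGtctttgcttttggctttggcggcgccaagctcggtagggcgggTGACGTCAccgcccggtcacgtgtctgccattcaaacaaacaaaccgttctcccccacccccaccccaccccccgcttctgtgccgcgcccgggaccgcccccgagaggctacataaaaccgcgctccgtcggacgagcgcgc
Btg2: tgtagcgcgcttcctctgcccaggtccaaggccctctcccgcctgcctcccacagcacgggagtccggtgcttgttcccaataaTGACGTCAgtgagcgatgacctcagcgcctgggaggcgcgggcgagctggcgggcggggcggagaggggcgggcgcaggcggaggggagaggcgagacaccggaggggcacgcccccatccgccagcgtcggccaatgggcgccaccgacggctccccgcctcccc
The full element occurred once in Dusp1 and once in Btg2, against 1.55% of 32851 promoter windows of the same length that hold it. Half-sites numbered 2 in Egr4, 4 in Nr4a1, 3 in Dusp1 and 2 in Btg2; a full element counts as 2. Of all windows, 17.8% held at least 1 half-site, 3.9% at least 2 and 0.137% at least 4. No CArG box of the strict form (CC, then 6 bases of A or T, then GG) was in these 4 windows, and 1.47% of all windows had one. Forms with a mismatch were not counted. A match in these letters is a description of the sequence and not a bound site.

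Egr1 was the most abundant of the 6 genes per length of transcript and Btg2 the least. On the log2 scale of cpm per kilobase of the principal transcript, the means over 44 mice were 5.24 for Egr1, 4.41 for Egr4, 4.33 for Arc, 4.27 for Dusp1, 4.03 for Nr4a1 and 2.49 for Btg2. Egr1 lay above Egr4 in 41 of 44 mice, by 0.83 ± 0.55 (SD), and Nr4a1 lay above Btg2 in 40 of 44, by 1.54 ± 0.91. Of the 4 genes in between, neighbours in this order did not separate. Egr4 exceeded Arc in 27 mice, Arc exceeded Dusp1 in 24 and Dusp1 exceeded Nr4a1 in 28. Their mean differences were 0.06 to 0.24 against SDs of 0.49 to 0.55. Egr4 and Nr4a1, the ends of these 4 with means of 4.41 and 4.03, were not compared mouse by mouse. Counting error was small in these values, since the lowest count of any of the 6 genes in any mouse was 95 reads, for Btg2, and the highest 5349, for Egr1, at effective library sizes of 12802113 to 20440351 reads.

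**Figure D1:**
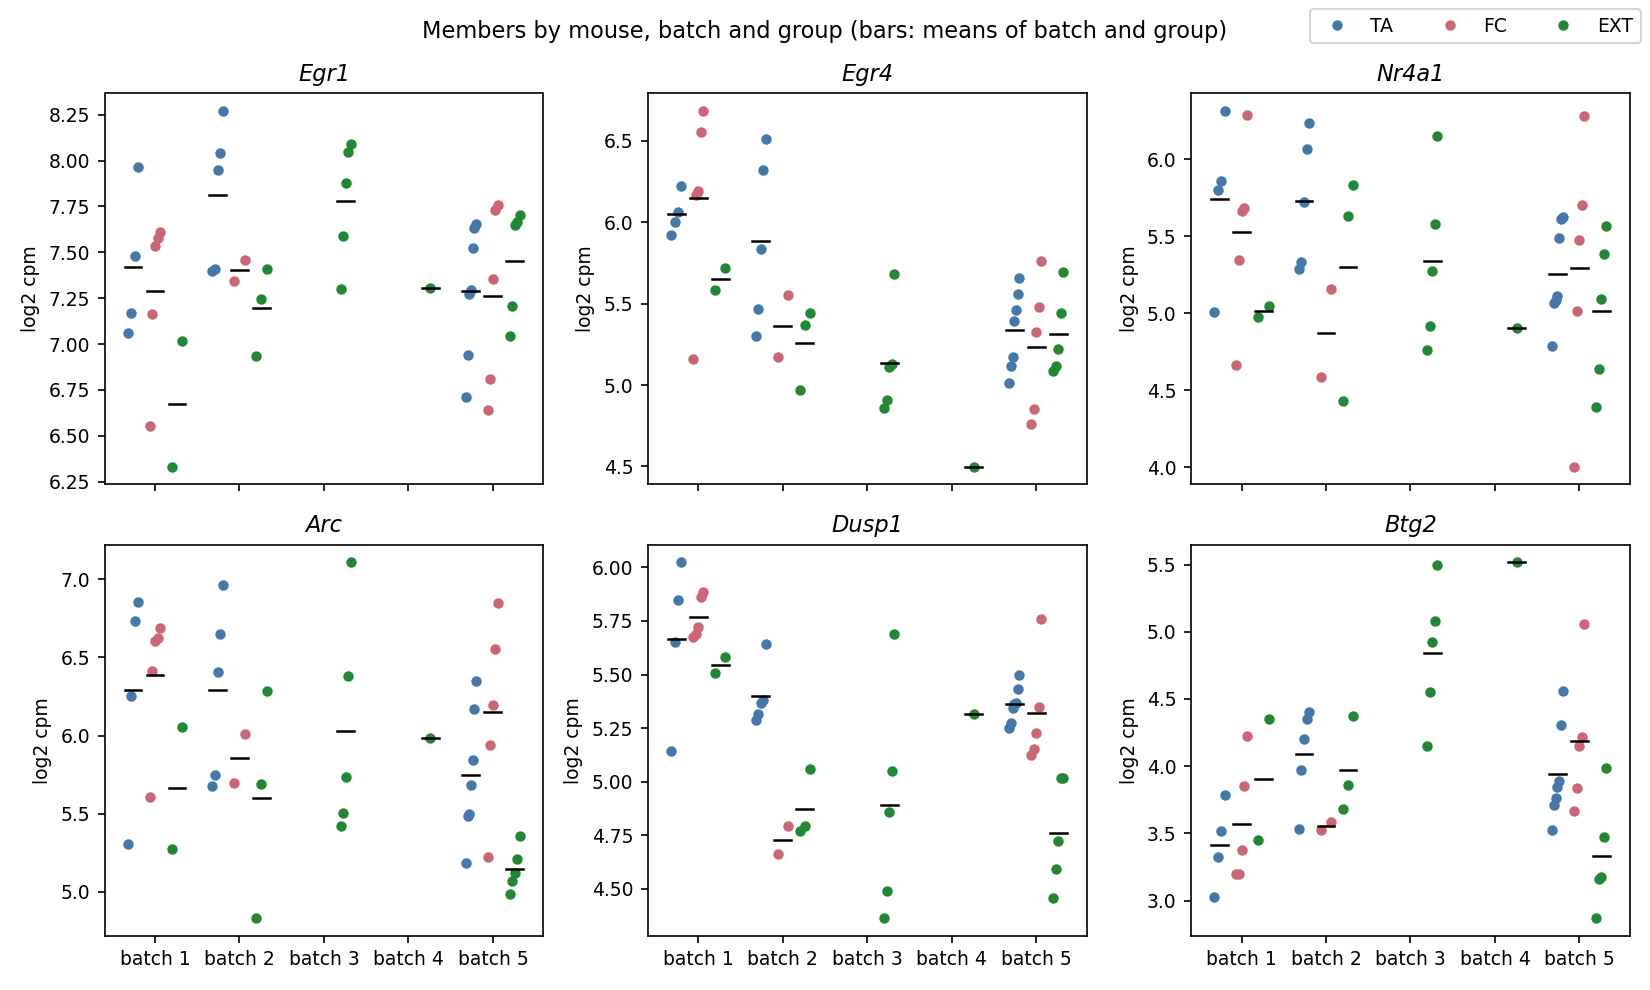
Level of each gene (log2 cpm) in each of the 44 mice, by batch and by group (TA blue, FC red, EXT green), with a bar at the mean of each batch and group. Batches 3 and 4 held only EXT mice; in batch 5 all 5 EXT mice lay below all TA and FC mice for Dusp1, and in batch 3 Btg2 lay between 4.15 and 5.49.

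The mice came in 5 batches, and groups were spread unevenly over them. Batch 1 held 4 TA, 5 FC and 2 EXT mice, batch 2 held 5, 2 and 3, and batch 5 held 7, 5 and 5, while the 5 mice of batch 3 and the 1 mouse of batch 4 were all EXT mice. In those 2 batches batch and group cannot be told apart. The fits below treated batch as categories, so that a difference between groups came from batches 1, 2 and 5, and the same fit with batch as a number is given beside it where it changed a call or a direction. Library sizes also differed, with medians of 18015590 in TA, 16977973 in FC and 15412341 in EXT mice.

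All 6 genes had lower fitted levels in EXT than in TA mice with batch as categories, the sign of Btg2 turning with the coding of batch. No gene of the 6 passed the FDR threshold of 0.05, against 2 of all 8203 genes (0.0244%), Fos and Iars, the latter outside the rule for named genes and chosen with its value known. At an unadjusted p under 0.05, 4 of the 6 genes passed, all lower in EXT, where 21.1% of all genes passed and 11% passed and were lower. The median log2 fold change was -0.35 over the 6 genes and 0.01 over all genes. Neuronal markers as a summed level differed by -0.09 ± 0.11 (SE, log2) in the same comparison, and GABAergic and central amygdala markers by -0.06 ± 0.15. Oligodendrocyte markers differed by -0.11 ± 0.23, astrocyte markers by 0.06 ± 0.20 and choroid plexus markers by -0.48 ± 0.79. Mitochondrially encoded transcripts and the nuclear RNA Malat1, 7 of 10 listed, differed by 0.62 ± 0.61. The part of these markers and transcripts in the result was not tested.

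Dusp1 had the smallest p of the 6 genes. Its level was 5.14, 5.37 and 6.02 log2 cpm at the lowest, median and highest in TA mice and 4.36, 4.94 and 5.69 in EXT mice, and the TA median exceeded 13 of 16 EXT mice. The fitted difference was -0.48 (SE 0.11, 95% interval -0.71 to -0.26), with an unadjusted p of 0.000149 in limma, the sixth smallest of 8203, and an FDR-adjusted p of 0.133. The batches differed in how clearly the groups parted. In batch 5 the EXT mice were at 4.46, 4.59, 4.72, 5.02 and 5.02, below all 7 TA mice (5.25 to 5.50). In batch 2 the EXT mice were at 4.77, 4.79 and 5.06, again below all 5 TA mice (5.29 to 5.64), while in batch 1 the EXT mice (5.51 and 5.58) lay within the range of the 4 TA mice (5.14 to 6.02). The within-batch differences were -0.60 ± 0.10 (SE), -0.53 ± 0.11 and -0.12 ± 0.29 in batches 5, 2 and 1.

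Arc had the largest fitted difference, -0.64 (SE 0.20, 95% interval -1.05 to -0.24; limma p = 0.0028, FDR-adjusted p = 0.143). Its level ran from 5.18 through a median of 6.01 to 6.96 in TA mice and from 4.83 through 5.46 to 7.11 in EXT mice, and 12 of 16 EXT mice were under the TA median. The groups overlapped in every batch. Within batches the difference was -0.62 ± 0.58 (SE) in batch 1, -0.69 ± 0.45 in batch 2 and -0.60 ± 0.19 in batch 5, so that its size was alike in the 3 batches and its error was smallest in the batch with most mice. The highest Arc level of all 44 mice was in an EXT mouse of batch 3, animal 23, which was also the highest EXT mouse for Egr1 (8.09), Nr4a1 (6.15) and Dusp1 (5.69).

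Nr4a1 and Egr4 were lower in EXT mice at unadjusted p-values only. Nr4a1 had medians of 5.55 in TA and 5.07 in EXT mice and a fitted difference of -0.42 (SE 0.18; limma p = 0.028, FDR-adjusted p = 0.187). Its within-batch differences were -0.73 ± 0.41 (SE), -0.43 ± 0.41 and -0.24 ± 0.23 in batches 1, 2 and 5. Egr4 had medians of 5.61 and 5.18 and a fitted difference of -0.29 (SE 0.13; limma p = 0.0324, FDR-adjusted p = 0.201). Its within-batch differences were -0.40 ± 0.10 in batch 1, -0.63 ± 0.33 in batch 2 and -0.02 ± 0.14 in batch 5, where the EXT mice (5.09 to 5.69) overlapped the TA mice (5.01 to 5.66).

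Egr1 and Btg2 did not pass an unadjusted p under 0.05. Egr1, which lies at chr18:34859823-34864984 on the plus strand, had medians of 7.45 in TA and 7.36 in EXT mice and a fitted difference of -0.27 (95% interval -0.59 to 0.05; limma p = 0.0947, FDR-adjusted p = 0.317). Its difference was -0.68 without batch 5 (limma p = 0.0025, FDR-adjusted p = 0.0742) and -0.08 with batch as a number (limma p = 0.598). Its within-batch differences were -0.74 ± 0.37 (SE) in batch 1, -0.62 ± 0.25 in batch 2 and 0.16 ± 0.20 in batch 5. Btg2 had medians of 3.82 and 4.07 and a fitted difference of -0.22 (95% interval -0.57 to 0.14; limma p = 0.217, FDR-adjusted p = 0.475). Its within-batch differences were 0.49 ± 0.36 in batch 1, -0.12 ± 0.26 in batch 2 and -0.61 ± 0.23 in batch 5, where 4 of 5 EXT mice lay below all TA mice.

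Which of these genes were FDR-significant depended on the coding of batch and on the mice in the fit. With batch as a number, 2 of the 6 genes passed, Dusp1 (-0.48, FDR-adjusted p = 0.013) and Egr4 (-0.42, FDR-adjusted p = 0.0186), where 21.4% of all genes passed. Arc was then at -0.40 (FDR-adjusted p = 0.11) and Btg2 at 0.28 (FDR-adjusted p = 0.354), with its direction turned. In the same fit all 7 measured transcripts of the list of mitochondrially encoded RNAs and Malat1 were called higher in EXT mice (median log2 fold change 2.25). Of the GABAergic and central amygdala markers, 5 of 11 were called lower, and the part of both lists in these calls was not tested. With batches 3 and 4 left out and batch as categories, 409 genes passed, among them Dusp1 (-0.48, FDR-adjusted p = 0.029) and Arc (-0.63, FDR-adjusted p = 0.0499). Leaving out only animal 23 gave 472 genes and the same pair, Dusp1 at an FDR-adjusted p of 0.0272 and Arc at 0.0429, with fitted differences of -0.48 and -0.64. With the log2 library size as a covariate, only Dusp1 (-0.31) kept an unadjusted p under 0.05, and no gene of the table passed the FDR threshold.

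**Figure D2:**
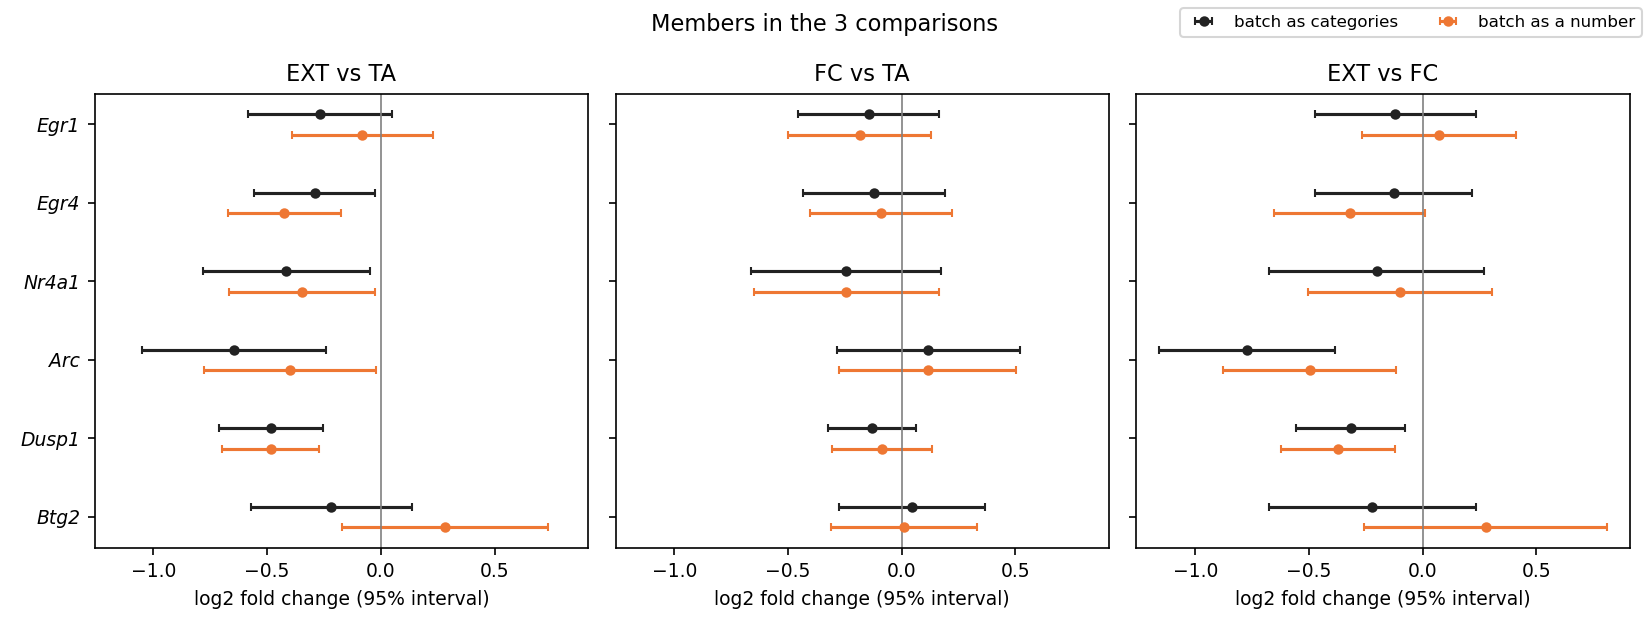
Log2 fold change of each gene in the 3 comparisons, with its 95% interval, from limma fits with batch as categories (black) and with batch as a number (orange). In EXT against TA and EXT against FC the intervals of Arc and Dusp1 lie below 0 under both codings, and in FC against TA each interval includes 0; the estimates of Btg2 in the 2 comparisons with EXT mice change sign.

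Fear conditioning against tone alone gave no detectable difference in the 6 genes. None passed the FDR threshold (0% of all genes passed), and none passed an unadjusted p under 0.05, where 16.8% of all genes did (8.2% lower and 8.61% higher). The fitted differences were -0.15 for Egr1, -0.12 for Egr4, -0.25 for Nr4a1, 0.12 for Arc, -0.13 for Dusp1 and 0.05 for Btg2, with standard errors of 0.09 to 0.20 and FDR-adjusted limma p-values of 0.478 to 0.915. The intervals bound the differences unequally: that of Dusp1 ran from -0.33 to 0.06 and that of Nr4a1 from -0.66 to 0.17. In this comparison summed astrocyte markers were higher in FC mice by 0.50 ± 0.17 (SE, log2), 5 of the 8 at an unadjusted p under 0.05, and GABAergic and central amygdala markers differed by -0.23 ± 0.11, and their part in the values of the 6 genes was not tested. In batch 2, where there were 2 FC mice, Dusp1 (4.66 and 4.79) and Nr4a1 (4.59 and 5.16) lay below all 5 TA mice, whereas in batches 1 and 5 both genes overlapped.

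Between EXT and FC mice Arc had the largest fitted difference of the 6 genes. FC mice had 5.23, 6.31 and 6.85 log2 cpm at the lowest, median and highest, and EXT mice 4.83, 5.46 and 7.11. The fitted difference was -0.77 (SE 0.19, 95% interval -1.16 to -0.39) with an unadjusted limma p of 0.000341, the third smallest of all genes, and an FDR-adjusted p of 0.768. In batch 5 the EXT mice were at 4.99, 5.07, 5.12, 5.21 and 5.36 and the FC mice at 5.23, 5.94, 6.20, 6.55 and 6.85, so that 4 of 5 EXT mice lay below all FC mice. The within-batch differences were -1.0 ± 0.29 (SE) in batch 5, -0.72 ± 0.39 in batch 1 and -0.25 ± 0.56 in batch 2. Dusp1 differed by -0.32 (SE 0.12; limma p = 0.012, FDR-adjusted p = 0.975), with all 5 EXT mice below all FC mice in batch 5 and both EXT mice below all FC mice in batch 1. In batch 2 its difference was 0.15 ± 0.13.

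No gene of the 6, and none of all 8203 (0%), passed the FDR threshold between EXT and FC mice, and 2 of the 6 passed an unadjusted p under 0.05, both lower in EXT mice, where 4.19% of all genes passed and 1.97% were lower. The 4 others had fitted differences of -0.12 to -0.22 and unadjusted limma p-values of 0.329 to 0.495. Egr1 and Btg2 changed sign with batch as a number (0.07 and 0.28). Summed oligodendrocyte markers differed by -0.48 ± 0.30 (SE, log2) and astrocyte markers by -0.34 ± 0.17, and their part in the difference of Arc was not tested. The 3 comparisons share groups, the TA mice standing in 2 of them, so their values for a gene are not independent.

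The labels gave the sex of each mouse, which was not checked against expression here. The interaction of sex and group had 0 FDR-significant genes in EXT against TA and in FC against TA. At an unadjusted p under 0.05, 1 of the 6 genes passed in each, Dusp1, where 6.02% and 9.62% of all genes passed. In EXT against TA its difference was -0.19 (SE 0.15) in females and -0.67 (SE 0.13) in males, and the difference between the sexes was -0.48 (limma p = 0.0162, FDR-adjusted p = 0.709). In FC against TA it was 0.13 (SE 0.13) in females and -0.34 (SE 0.11) in males, a difference of -0.47 (limma p = 0.0102, FDR-adjusted p = 0.4). Both EXT mice of batch 1 were female, and Dusp1 differed from TA there by -0.12 ± 0.29 (SE). Both FC mice of batch 2 were male, and Dusp1 differed from TA there by -0.67 ± 0.11. The contrasts of Dusp1 between sexes and between batches therefore cannot be fully told apart. Arc had the next largest contrast in EXT against TA, with -0.25 (SE 0.29) in females and -0.90 (SE 0.23) in males (limma p = 0.0724, FDR-adjusted p = 0.867).

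Egr4 and Dusp1 differed between batches that held all 3 groups. In batches 1, 2 and 5, with group and sex in the fit, Egr4 differed from its level in batch 1 by -0.46 (SE 0.19) in batch 2 and -0.74 (SE 0.17) in batch 5 (FDR-adjusted p = 0.00104, limma F test), and Dusp1 by -0.46 (SE 0.12) and -0.40 (SE 0.11; FDR-adjusted p = 0.00223). These were 2 of the 6 genes, where 55.3% of all genes passed. In TA mice alone Egr4 passed (FDR-adjusted p = 0.0106) and Dusp1 did not (FDR-adjusted p = 0.166). Btg2 tended to be higher in the EXT-only batches, without a test. Its level was 4.15 to 5.52 in the 6 EXT mice of batches 3 and 4, and 2.87 to 4.38 in the 10 EXT mice of batches 1, 2 and 5. In TA and FC mice it was 3.03 to 5.06, so the ranges overlapped. Means in the 6 and the 10 EXT mice were 4.95 and 3.64 for Btg2, 7.70 and 7.22 for Egr1, and 6.02 and 5.39 for Arc. They were 5.27 and 5.10 for Nr4a1, 4.96 and 4.95 for Dusp1, and 5.03 and 5.37 for Egr4. The same 6 mice had Crh, which encodes corticotropin-releasing hormone, at 3.15 to 4.56, against 3.49 to 6.31 in the 10 others.

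Covariation between animals was measured after the mean of each batch and group had been subtracted, in the 39 mice of the 8 batch-and-group combinations with at least 3 mice. Egr1, Egr4, Nr4a1 and Arc, grouped here by their r-values, had a positive r in all their pairs, of which 4 passed an adjusted p under 0.05. The sign did not set them apart, since all 10 pairs without Btg2 had a positive r. The highest r was that of Nr4a1 with Arc. Their r was 0.80 (Spearman's rho 0.77; adjusted permutation p = 0.0197 over the 49197 pairs of 1 of the 6 genes with any gene). Of 8202 other genes, none was closer to Nr4a1 than Arc, and none closer to Arc than Nr4a1. The rank of Arc for Nr4a1 depended on the setting and on animal 23: it was 6 without that mouse, 4 by Spearman's rho, 4 with library size regressed out, 3 with sex subtracted and 2 with the first principal component removed. The rank of Nr4a1 for Arc was 2 with that component removed and 1 in the 4 others. Within TA, FC and EXT mice alone the rank of Arc for Nr4a1 was 69, 7 and 16. The r itself rested on no single mouse, lying between 0.77 and 0.82 when each was left out in turn and 0.76 without the 2 mice farthest from the median of Nr4a1. It was 0.87 in batch 1 (n = 9), 0.81 in batch 2 (n = 8) and 0.73 in batch 5 (n = 17).

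**Figure D3:**
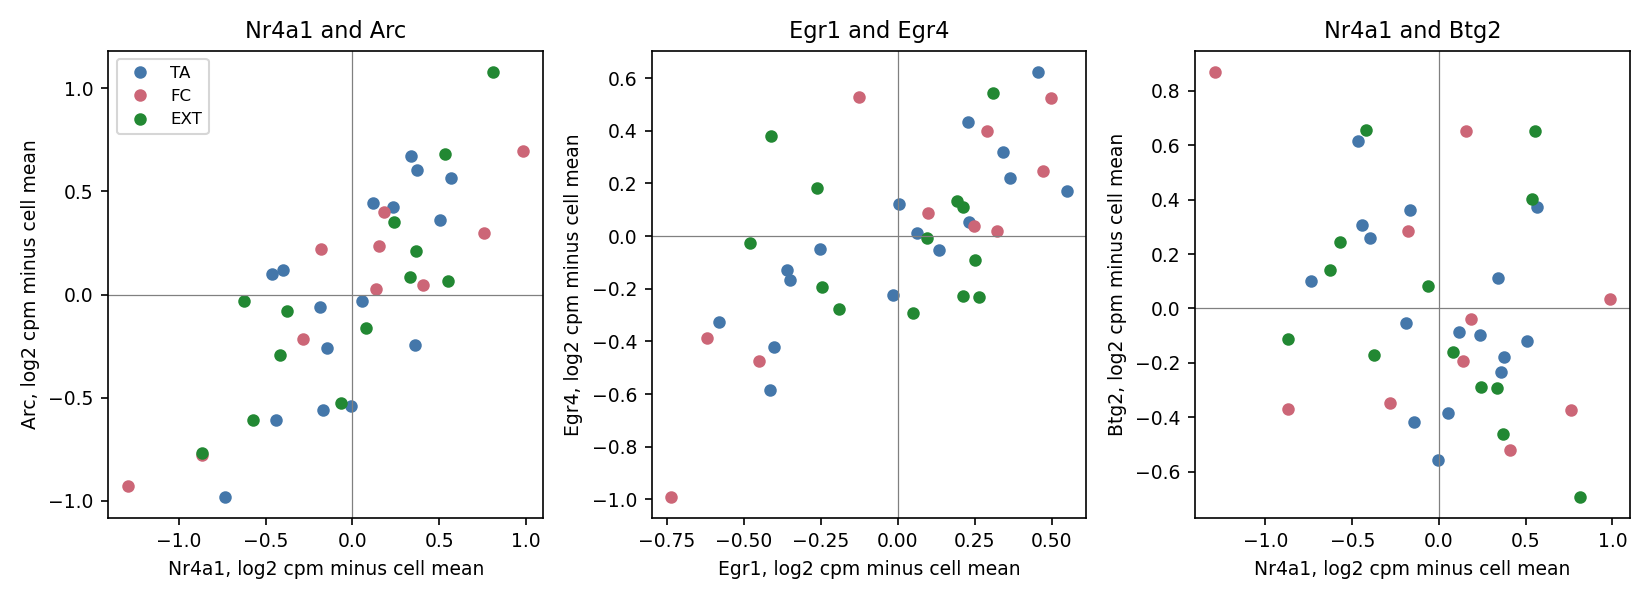
Each point is 1 of 39 mice, and both axes give log2 cpm minus the mean of the mouse's batch and group (TA blue, FC red, EXT green). Nr4a1 and Arc rise together (r = 0.80), Egr1 and Egr4 do too (r = 0.66), and Nr4a1 and Btg2 are at r = -0.33, which did not pass the threshold.

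Of the 15 pairs among the 6 genes, 4 passed an adjusted p under 0.05, where 0.762% of all 49197 pairs passed. Beside Nr4a1 and Arc these were Egr1 and Egr4 (r = 0.66, rho = 0.65, adjusted permutation p = 0.0326), Egr1 and Arc (r = 0.62, rho = 0.60, adjusted permutation p = 0.04) and Egr4 and Nr4a1 (r = 0.60, rho = 0.60, adjusted permutation p = 0.0488). Without the 2 farthest mice their r was 0.57, 0.54 and 0.55. Egr1 with Nr4a1 (r = 0.59) and Egr4 with Arc (r = 0.53) missed the threshold, with adjusted permutation p-values of 0.0587 and 0.0857. Within batches 1, 2 and 5 these 4 genes kept a positive r in all their pairs, from 0.40 to 0.87. The r within batch 3, which held only EXT mice, was not computed. By group, Nr4a1 with Arc was at r = 0.71 in TA (n = 16), 0.92 in FC (n = 10) and 0.82 in EXT mice (n = 13), whereas Egr1 with Egr4 was at 0.83, 0.81 and -0.02, and no pair passed within a group alone. Whether the r of Egr1 with Egr4 differed between groups was not tested. When animal 23 was left out, Nr4a1 with Arc was the only pair that passed (r = 0.78, adjusted permutation p = 0.0126), and the other 3 were at r = 0.65, 0.61 and 0.57 with adjusted permutation p-values of 0.0518, 0.0565 and 0.085. For Nr4a1 with Arc the unadjusted permutation p was the smallest possible, 1e-05, with and without that mouse. Its adjusted permutation p-values of 0.0197 and 0.0126 therefore do not show a stronger relation without it.

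The residuals behind these r-values were as follows, as a description of the same relation. In 13 of 39 mice all 4 lay above the mean of their batch and group and in 8 mice all 4 lay below it, and 5 mice were evenly split. Animal 19, an FC mouse of batch 1, had the lowest Egr1 (-0.73) and Egr4 (-0.99) relative to its batch and group mean, animal 47, an FC mouse of batch 5, the lowest Nr4a1 (-1.29), and animal 8, a TA mouse of batch 1, the lowest Arc (-0.98). On the high side were animal 12, an FC mouse of batch 5, with Nr4a1 at 0.99 and Arc at 0.69, and animal 23 with Nr4a1 at 0.81 and Arc at 1.08. The spread left after batch and group were removed was 0.51 (SD) for Nr4a1, 0.49 for Arc, 0.35 for Egr1 and 0.34 for Egr4, and 0.24 for Dusp1.

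Dusp1 had an r of 0.55 with Arc, 0.52 with Nr4a1, 0.15 with Egr1 and 0.19 with Egr4, and none of these passed, with adjusted permutation p-values of 0.116, 0.0995, 0.693 and 0.554. Its relation to Arc was 0.42 without animal 23, and in batch 2 its r was -0.42 with Egr1, -0.55 with Egr4, -0.13 with Nr4a1 and 0.10 with Arc. Btg2 had a negative r with each of the 5 others, from -0.08 with Egr1 to -0.33 with Nr4a1, and none passed the threshold. The direction did not hold within batches: with Egr1 it was 0.67 in batch 1, -0.25 in batch 2 and -0.40 in batch 5. Whether the r-values of Dusp1 or Btg2 differed from those of the other genes was not tested.

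**Figure D4:**
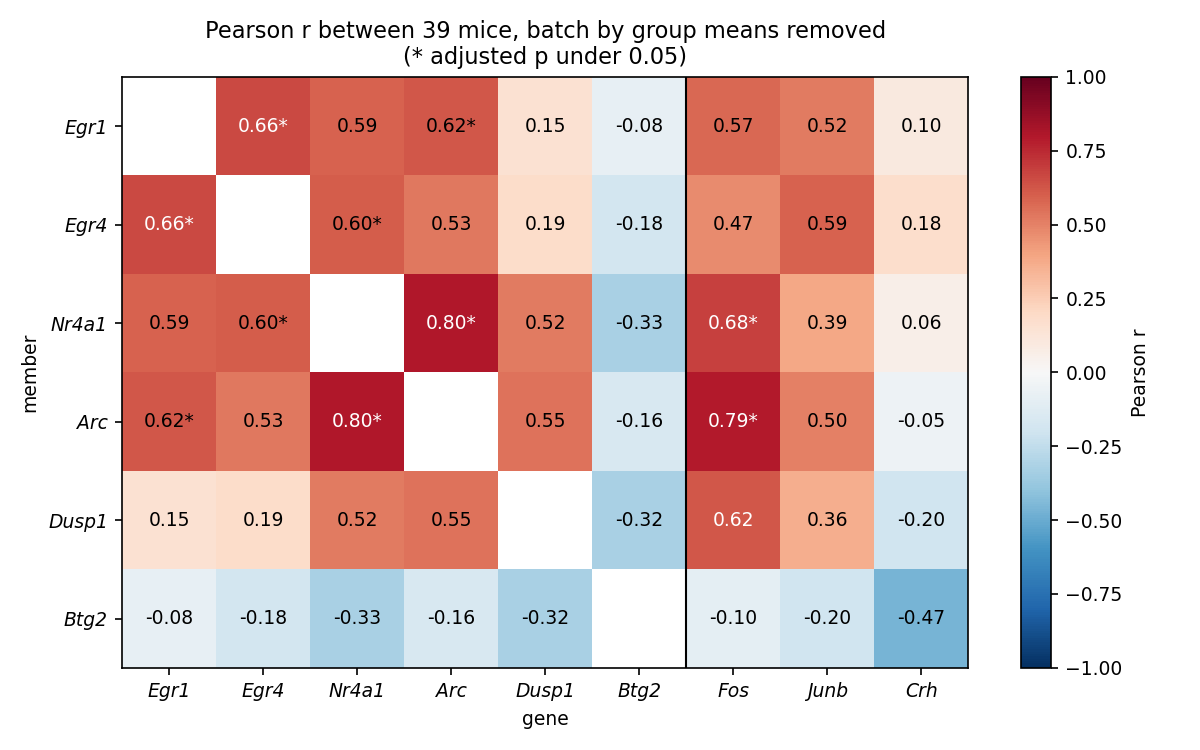
Pearson r between the 6 genes, and of each with Fos, Junb and Crh (right of the line), over 39 mice after removal of batch and group means; an asterisk marks an adjusted permutation p under 0.05. Egr1, Egr4, Nr4a1 and Arc form a block of r between 0.53 and 0.80, and Btg2 is at or below -0.08 with every other gene of the 6.

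**Figure D5:**
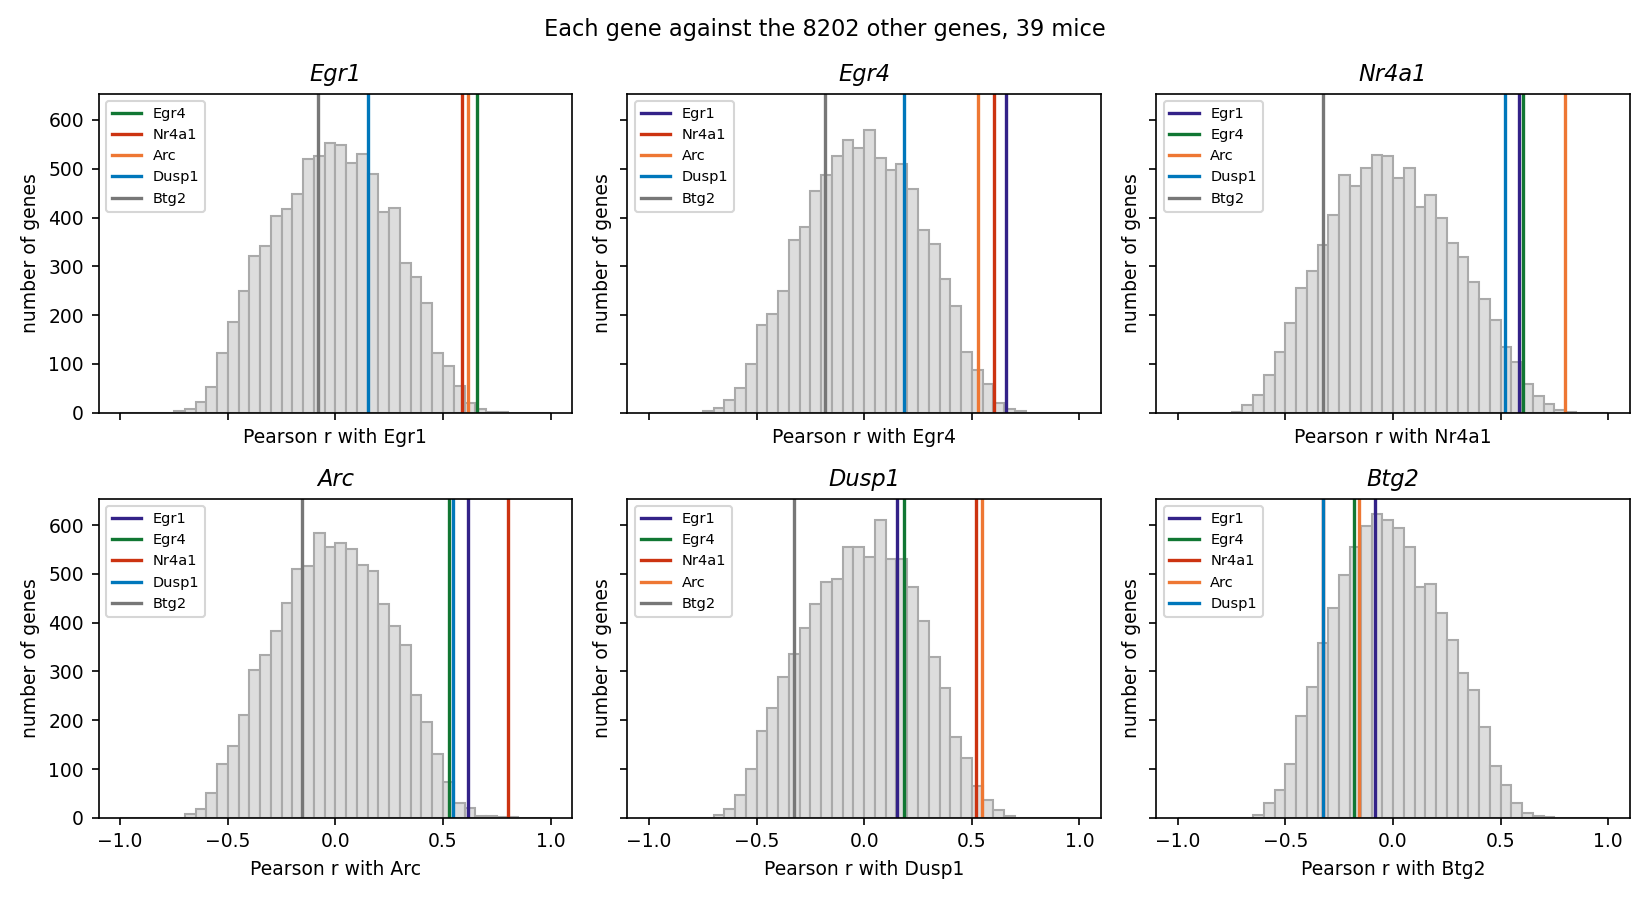
Number of genes (y axis) by Pearson r (x axis) with each of the 6 genes, over all 8202 other genes and 39 mice, with coloured lines at the r of the 5 others. For Arc the line of Nr4a1 lies beyond all other genes, and for Btg2 the lines of the others lie below the middle of the distribution.

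The background to these values was broad. The 5th to 95th percentile of r over all genes was -0.43 to 0.41 for Arc and -0.46 to 0.49 for Nr4a1. Fos, the product of which forms the AP-1 factor with Jun proteins, was the second closest gene to Arc (r = 0.79, rho = 0.71, adjusted permutation p = 0.0197), and it reached r = 0.68 with Nr4a1 (adjusted permutation p = 0.0261). Its r with Egr1, Egr4 and Dusp1 was 0.57, 0.47 and 0.62, with adjusted permutation p-values of 0.0506, 0.1 and 0.117. Junb was nearest to Egr4 (r = 0.59, adjusted permutation p = 0.0587). Crh had an r between -0.05 and 0.18 with Egr1, Egr4, Nr4a1 and Arc, and its lowest r with Btg2 (-0.47, rho = -0.41, adjusted permutation p = 0.125).

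By the highest r, the genes most like each of the 6 over the 39 mice were as follows. For Egr1 they were Vps33a (r = 0.76), Spata2l (0.73) and Sik3 (0.71), and for Egr4 Spata2l (0.75), Ldb1 (0.73) and Mkl1 (0.71). For Nr4a1 they were Arc, Ngef (0.77) and Impdh1 (0.77), and for Arc Nr4a1, Fos and Dcun1d2 (0.72). These all had adjusted permutation p-values of 0.0197 to 0.0288, as did Mphosph6 (0.72), 2810013P06Rik (0.69) and Pnrc1 (0.67) for Btg2. The genes most like Dusp1, Sh2d3c (0.69), Opa1 (0.68) and Numb (0.67), had adjusted permutation p-values of 0.0826, 0.116 and 0.0757.

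Other measures of the same mice moved with some of the genes. Over the 39 mice, summed neuronal markers had an r of 0.54 with Dusp1, 0.49 with Arc and 0.40 with Nr4a1, and of 0.23 and 0.26 with Egr1 and Egr4. Summed oligodendrocyte markers had an r of -0.55 with Egr4 and -0.37 with Egr1, and GABAergic and central amygdala markers one of -0.53 with Btg2. Choroid plexus markers had an r of -0.36 with Egr1 and -0.33 with Btg2, and glutamatergic markers one of 0.39 with Btg2. The 1 endothelial gene had an r of 0.44 with Dusp1 and -0.41 with Btg2. Astrocyte markers lay between -0.20 and 0.20 with all 6 genes. The summed mitochondrially encoded transcripts and Malat1 had an r of -0.36 with Egr4, -0.32 with Dusp1 and -0.29 with Nr4a1. Their r was -0.13 with Egr1, -0.09 with Arc and 0.34 with Btg2. The r with log2 library size was 0.38 for Nr4a1, 0.39 for Dusp1, 0.32 for Arc, 0.22 for Egr4, 0.10 for Egr1 and -0.24 for Btg2; none passed an adjusted permutation p under 0.05 (0% of all genes did), and Nr4a1 passed an unadjusted one (p = 0.0249), as did 9.98% of all genes. With library size also regressed out, Nr4a1 with Arc stayed at r = 0.78. The part of the marker, mitochondrial and Malat1 levels in the covariation was not tested.

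Of the wider programme, 29 of 63 listed activity-regulated genes were in the table, which holds only genes over a minimum cpm in every sample. Listed genes under that minimum in any mouse are therefore not covered. In EXT against TA the median log2 fold change of the 29 was -0.06. Of these, 1 passed the FDR threshold, Fos (-0.90, SE 0.17, FDR-adjusted p = 0.033). At an unadjusted p under 0.05, 6 of the 29 passed, near the 21.1% of all genes, and all 6 were lower in EXT mice, where 11% of all genes were: Fos, Jun (-0.54), Junb (-0.53), Vgf (-0.38), Pim3 (-0.24) and Mcl1 (-0.18). In FC against TA 3 passed an unadjusted p under 0.05, all lower in FC mice (8.2% of all genes), Vgf (-0.49), Plk2 (-0.38) and Dusp6 (-0.30), the last a phosphatase of ERK kinases. In EXT against FC Fos (-0.72), Pim3 (-0.31) and Mcl1 (-0.23) were lower and Arpp21 (0.60) higher at that level, where 2.22% of all genes were higher.

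Upstream signalling genes passed about as often as all genes. Of 37 listed, 33 were in the table, none was FDR-significant in any of the 3 comparisons, and the median log2 fold change in EXT against TA was -0.02. At an unadjusted p under 0.05, where 21.1% of all genes passed, 3 of the 33 were lower in EXT than in TA mice, where 11% of all genes were, Rps6ka2 (-0.41), Prkacb (-0.26) and the SRF coactivator gene Mkl1 (-0.26), and 5 were higher, where 10.2% of all genes were, Nras (0.31), Ppp3cb (0.31), Hras (0.29), Elk1 (0.25) and Calm3 (0.22). Of 16 genes for partners of the 6 proteins, 13 were in the table, and 3 of the 13 passed an unadjusted p under 0.05 in EXT against TA, again near the 21.1% of all genes, and none the FDR threshold. At that unadjusted level Mapk14, a kinase that DUSP1 inactivates, was lower (-0.28), and Cnot7, the deadenylase subunit that BTG2 binds (0.33), and Dlg4, a postsynaptic scaffold (0.49), were higher, with FDR-adjusted limma p-values of 0.149, 0.158 and 0.149.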

How the data were processed

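Sequencing libraries of TRAP RNA from 44 mice were compared as 16 TA, 12 FC and 16 EXT samples, grouped by GEO's labels. Per the labels and methods, the authors used Trimmomatic 0.36 for trimming, STAR for alignment to GRCm38 and edgeR to process the counts once made. They kept genes over a minimum cpm in every sample, and left out outlying samples. The counting tool and strand setting are not given in the sources used here. The values they deposited are log2 cpm as voom writes them, also in 12 columns listed as other in the record of units. From them whole reads and effective library sizes were solved back (360932 of 360932 values within 0.02 of a whole number), with library sizes of 12802113 to 20440351.

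Groups were compared with limma 3.58.1 in R 4.3.3, with batch as categories and sex as a factor, two-sided, with Benjamini-Hochberg adjustment over 8203 genes. Covariation used residuals from batch and group means, and 100000 permutations within these cells. The smallest p these can give is 1e-05. Scripts were tested on simulated data. The 6 genes and all gene lists were chosen with earlier results of these data known. Named genes are the 6, listed genes at an unadjusted p under 0.05, the 3 genes with the highest r with each, and Crh; Fos and Junb, shown beside the 6 in the correlations, belong to a list. p-values measure the spread between mice. Alternatives covered batch coding, filters, scaling, weights, library size, samples left out and the correlation measure.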

Additional observations from a re-analysis of the deposited data

Results flagged for a closer look

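Each of the 6 genes was checked in each combination of batch and group with 4 to 10 mice for a highest or lowest mouse far from the rest, by the gap to its nearest neighbour over the range (Dixon's criterion at 95%). Of 42 sets, 2 were flagged, where chance flags about 1 in 20. Arc was at 5.61 log2 cpm in animal 19, an FC mouse of batch 1, below the 4 other FC mice of that batch (6.41 to 6.69), with a gap of 0.746 of the range against a critical value of 0.71. Dusp1 was at 5.64 in animal 34, a TA mouse of batch 2, above the 4 others (5.29 to 5.38), with a gap of 0.73 of the range. No result was flagged for a difference between the sexes at the FDR threshold, and no column of values was left outside the comparisons.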

How the results depend on the processing

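The 6 genes kept the sign of their difference between EXT and TA mice under all alternatives, but for Btg2, and apart from single mice left out the fitted difference ran from -0.49 to -0.31 for Dusp1, -0.74 to -0.40 for Arc, -0.61 to -0.23 for Nr4a1, -0.53 to -0.22 for Egr4 and -0.68 to -0.08 for Egr1, the last passing an unadjusted p under 0.05 without batch 5. Btg2 was at 0.28 with batch as a number, 0.27 without a batch term and 0.12 without batch 5. From 2 genes of all tested, the calls between EXT and TA mice went to 1755 with batch as a number, 1614 without a batch term, 409 without batches 3 and 4 (fewer samples), 6 without batch 5, 1 with the 3 groups in one fit, 1 with a mean log2 value of at least 5 and 0 with voom weights or library size; the cause was not tested. Of the 6 genes, 2 were then called with batch as a number, without a batch term and without batches 3 and 4, and with library size 1 in place of 4 passed an unadjusted p under 0.05. Between FC and TA mice, Btg2 was at -0.000998 without a batch term, Arc at -0.12 and Btg2 at -0.11 without batch 5, and 3 genes in place of 0 were called with a mean of at least 5. Between EXT and FC mice, Egr1 was at 0.074 and Btg2 at 0.28 with batch as a number, Egr1 at 0.083 and Btg2 at 0.28 without a batch term, Egr4 at 0.068 and Nr4a1 at 0.022 with library size, and without batch 5 Btg2 was at 0.49 and 1 of the 6 genes in place of 2 passed an unadjusted p under 0.05. In the sex difference of EXT and TA mice, 0 in place of 1 passed with batch as a number, and between batches 1 in place of 2 was called in TA mice alone. With additive terms for group, batch and sex, the r of Btg2 was 0.024 with Arc and 0.0078 with Dusp1. With TA, FC or EXT mice alone, 0 of 15 pairs were called; in TA mice Egr4 with Dusp1 was at -0.11, and Btg2 at 0.059 with Arc and 0.014 with Dusp1, in FC mice Btg2 was at 0.070 with Dusp1, and in EXT mice Egr1 was at -0.023 with Egr4 and 0.024 with Btg2.

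With each mouse left out in turn, the genes called between EXT and TA mice numbered 0 to 472, the most without animal 23, and of the 6 genes 0 to 2 were called and 2 to 5 passed an unadjusted p under 0.05. Between FC and TA mice these ranges were 0 to 3 genes called and 0 to 1 of the 6 at an unadjusted p, with Btg2 between -0.058 and 0.11. Between EXT and FC mice Egr1 ran from -0.21 to 0.0045. Without animal 23, 1 pair was called. The fits without batch 5, the correlations within a group or batch and those without animal 23 were chosen after seeing the data. No paired analysis was possible because the animal numbers are unique to each mouse.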
